A study of Rattus norvegicus with 6 samples.

Results

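The small leucine-rich proteoglycans are a family of secreted matrix proteins, and their mRNA was measured in rat atrial fibroblasts. A total of 9 members were looked for by name in the gene table, namely decorin (Dcn), biglycan (Bgn), asporin (Aspn), lumican (Lum), fibromodulin (Fmod), prolargin (Prelp), osteomodulin (Omd), osteoglycin (Ogn) and podocan (Podn). All 9 were found among 40154 genes. Of these, 7 were matched by symbol and 2 by NCBI gene ID, since podocan is listed as LOC102552895 and Ogn has a second annotated copy with the same symbol. The rule that picks them is their family name, and no measured value enters the rule itself. The family was, however, chosen with earlier results of these data known.

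The fibroblasts came from the hearts of Sprague-Dawley rats aged 1 to 3 days. The paper describes removal of atrial myocytes by letting other cells adhere for 1.5 h, but myocyte mRNA was still present, as given below. The 2 groups were cells transfected with a control siRNA (si-NC, 3 libraries) and cells transfected with an siRNA against Gpd1l, glycerol-3-phosphate dehydrogenase 1-like (si-GPD1L, 3 libraries), and both were collected 24 h after transfection. All 6 samples carry the treatment label "Atrial differentiation", which is not explained further. The comparison asks which mRNAs differ when the Gpd1l message is targeted, in a study of how an exosomal microRNA acts on atrial fibroblasts.

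Cultures from newborn hearts are a model of young, growing fibroblasts rather than of the adult atrium. Nothing in the labels says that the libraries came from separate isolations, so p-values measure the spread between these samples, which may be technical. The number that ends each si-GPD1L name was taken to count replicates, and whether the 3 libraries used the same siRNA is not stated. These are bulk samples, so fewer cells of a type and less RNA per cell cannot be told apart.

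Small leucine-rich proteoglycans have a short curved core built of leucine-rich repeats, which binds collagen fibrils and sets their diameter and spacing. Decorin and biglycan carry chondroitin or dermatan sulfate chains, lumican and fibromodulin carry keratan sulfate, and asporin and prolargin carry no such chain as a rule. Several members also bind TGF-β or cell surface receptors, and soluble biglycan is a ligand of Toll-like receptors. In the heart they are made mainly by fibroblasts. The family is divided into classes by sequence, and the results follow these classes.

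Library totals ran from 16892255 to 20149732 counts. A normalized count below is the deposited count scaled to the mean library size by TMM, a method that assumes most genes do not change. Fold changes are from si-GPD1L against si-NC, tested by edgeR's quasi-likelihood method, with p-values adjusted by Benjamini and Hochberg's procedure over 14852 genes. A gene is said to have risen or fallen where this value was under 0.05. The targeted gene itself, Gpd1l, had 262, 332 and 313 normalized counts in si-NC replicates 1 to 3. In si-GPD1L it had 220.2, 208 and 302, so the library labelled si-GPD1L replicate 3 lay inside the si-NC range. The log2 fold change of Gpd1l was -0.31 (SE 0.15, adjusted p = 0.234), and an exact two-sided permutation test gave p = 0.2, where 3 libraries against 3 cannot go below 0.1. Because of this overlap, member counts are also given without that library. A library of the other group also stood apart. The chi-square per degree of freedom over gene counts was 21.5 and 29.9 between si-NC replicate 1 and the other si-NC replicates, and 9.01 between those, whereas it ran from 4.12 to 6.22 within si-GPD1L.

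Of the 8 members with enough counts to test, 3 fell in si-GPD1L (Lum, Dcn and Podn) and 0 rose. Across all genes tested, 6.36% passed the same threshold, 2.33% lower and 4.03% higher in si-GPD1L. The study also asked for a log2 fold change beyond 1 in size, and 0 members passed this as well, against 1.62% of genes. The median log2 fold change of the tested members was -0.47, with 6 below 0 and 2 above, compared with a median of -0.0049 over all genes tested. At an unadjusted p-value under 0.05 there were 4 members, the 3 named above and Fmod. The groups did not overlap for 3 of the 8 members (Dcn, Lum and Fmod), and the same held for 29% of the tested genes. Without si-NC replicate 1 there were 4 members called, Fmod being added. Without the library labelled si-GPD1L replicate 3 there were 5 members called, Fmod and Ogn being added. Without si-GPD1L replicate 1, or without si-GPD1L replicate 2, Lum was the 1 member called. The number called over all genes moved as well, from 945 with all 6 libraries to 1531 without si-NC replicate 1. It was 591, 366 and 361 without si-GPD1L replicate 3, 1 and 2, in that order.

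**Figure D1:**
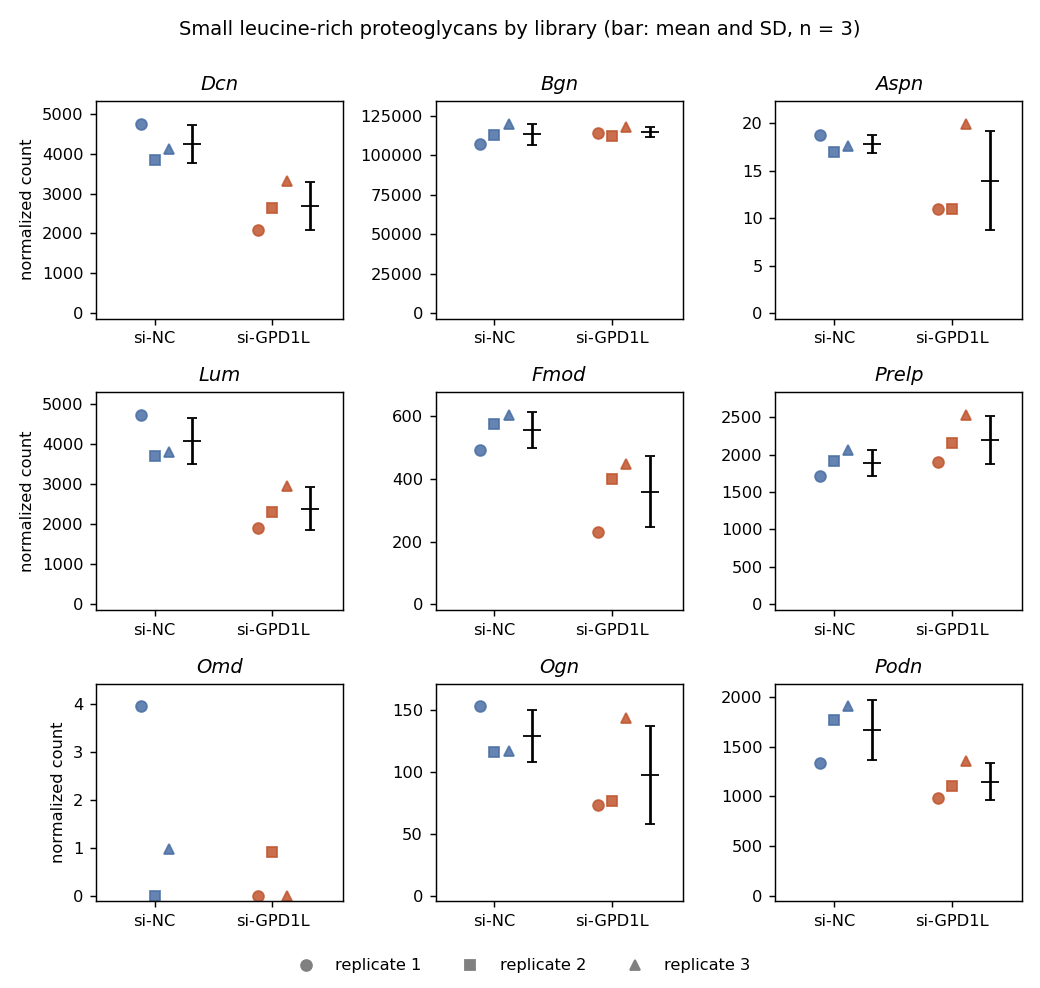
Normalized counts (y axes, each starting near 0) of the 9 members in the 3 si-NC libraries (blue) and the 3 si-GPD1L libraries (orange), with marker shapes for the replicate number and black bars for mean and SD (not drawn for Omd, with 0 to 4 counts). The si-GPD1L points lie below all si-NC points for Dcn, Lum and Fmod, while the groups overlap for the other members.

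Decorin, the class I member named for decorating collagen fibrils, was lower in every si-GPD1L library. Dcn (chromosome 7, 38742250 to 38782282, plus strand, rn6) had 4764, 3858 and 4124 normalized counts in si-NC replicates 1 to 3. In si-GPD1L replicates 1 to 3 it had 2094, 2647 and 3314. The groups did not overlap, and the gap between them was smallest for si-GPD1L replicate 3. The mean fell from 4249 ± 466 to 2685 ± 611 (SD, n = 3), or 63.2% of the si-NC mean. The log2 fold change was -0.66 (SE 0.14, 95% interval -0.96 to -0.37, adjusted p = 0.0129). Without si-NC replicate 1, the highest library for this gene, the log2 value was -0.57 with an adjusted p-value of 0.00160. Without si-GPD1L replicate 1 the value was -0.51 with an adjusted p-value of 0.0564, and without si-GPD1L replicate 2 it was -0.65 with an adjusted p-value of 0.0843. Of the 2 listed Dcn transcripts, NM_024129.1 had 4738, 3589 and 4144 counts in si-NC and 1884, 2852 and 3250 in si-GPD1L. Most reads were counted for both transcripts, so the table does not separate them.

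Biglycan, the close paralog of decorin and the other class I member that carries chondroitin or dermatan sulfate chains, overlapped between the groups and did not pass the threshold. Bgn (chromosome X, 157319042 to 157331204, minus strand) had 106770, 112483 and 120030 normalized counts in si-NC. The si-GPD1L libraries had 113889, 111935 and 117842, all within the si-NC range. The log2 fold change was 0.02 (SE 0.080, 95% interval -0.16 to 0.19, adjusted p = 0.922), an interval that spans 89.8% to 114.3% of the si-NC level. Its sign changed between alternative fits, and each value was small beside this interval.

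The balance of the pair can be read within a library, where any scaling cancels. There were 22.4, 29.2 and 29.1 Bgn counts for each Dcn count in si-NC replicates 1 to 3. In si-GPD1L there were 54.4, 42.3 and 35.6. All 3 ratios in si-GPD1L were above all 3 in si-NC, and the mean log2 ratio was higher by 0.70. The exact two-sided permutation test gave p = 0.1, the smallest value that 3 against 3 allows. With 1 library left out the difference ran from 0.54 to 0.85.

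Asporin, the class I member with a run of aspartate residues and a known binder of TGF-β, was near the limit of detection. Aspn (chromosome 17, 14655958 to 14681355, minus strand) had 18.8, 16.9 and 17.6 normalized counts in si-NC. In si-GPD1L it had 10.9, 10.9 and 19.96, so replicate 3 was the highest of the 6 libraries and the groups overlapped. Its log2 fold change was -0.35 (SE 0.36, 95% interval -1.13 to 0.43, adjusted p = 0.617). A difference of the size seen for Dcn lies inside this interval and was not detectable at this depth.

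Lumican, a class II member that regulates fibril assembly in cornea, skin and heart, had the largest fold change among the tested members. Lum (chromosome 7, 38820058 to 38826862, plus strand) had 4721, 3689 and 3804 normalized counts in si-NC. The si-GPD1L libraries held 1900.3, 2292 and 2955. The groups did not overlap, with si-GPD1L replicate 1 the lowest and si-NC replicate 1 the highest. The mean fell from 4071 ± 565 to 2383 ± 533 (SD, n = 3), or 58.5% of the si-NC mean, and the log2 fold change was -0.77 (SE 0.14, 95% interval -1.08 to -0.47, adjusted p = 0.00580). Lum was the member whose adjusted p-value stayed under 0.05 in all 15 alternative fits, the highest being 0.0492 without si-GPD1L replicate 2. Without si-NC replicate 1 the log2 value was -0.65 with an adjusted p-value of 0.000331.

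Fibromodulin, the class II paralog of lumican that binds the same region of collagen I and cross-linking enzymes, was lower in every si-GPD1L library without passing the threshold. Fmod (chromosome 13, 50874886 to 50885503, plus strand) had 491, 573 and 603 normalized counts in si-NC. Those of si-GPD1L had 231, 398 and 448. The groups did not overlap, and si-GPD1L replicate 1 stood well below the other 5 libraries. Its log2 fold change was -0.62 (SE 0.18, 95% interval -1.02 to -0.23), close to that of Dcn, with an adjusted p-value of 0.0623. The adjusted p-value was under 0.05 in 6 of 15 alternative fits, among them 0.0131 in DESeq2's Wald test, 0.0455 without si-GPD1L replicate 3 and 0.00572 without si-NC replicate 1. Without si-GPD1L replicate 1 it was -0.40, with an adjusted p-value of 0.140.

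Prolargin, a class II member whose basic end binds heparin and anchors basement membranes to connective tissue, was at 116.0% of the si-NC mean. Prelp (chromosome 13, 50749526 to 50773934, minus strand) had 1710.3, 1909.8 and 2055 normalized counts in si-NC. The si-GPD1L replicates had 1897, 2155 and 2529, and the groups overlapped. Its log2 fold change was 0.21 (SE 0.10, 95% interval -0.0094 to 0.44, adjusted p = 0.244). In the 15 alternative fits it stayed above 0, from 0.10 to 0.31, and never passed the threshold. A fall of the size of Lum or Dcn lies outside the interval.

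Osteomodulin, a keratan sulfate member of class II found in bone, was almost absent. Omd (chromosome 17, 15476100 to 15484324, minus strand) had 4, 0 and 1 counts in si-NC replicates 1 to 3 and 0, 1 and 0 in si-GPD1L. It was not tested, and a count of 0 allows up to 3 counts in a library.

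Osteoglycin, a class III member also called mimecan, was present at low level. Ogn (chromosome 17, 14607442 to 14628274, minus strand) had 153, 116 and 117 normalized counts in si-NC. In si-GPD1L it had 73.0, 76.3 and 144, so replicates 1 and 2 lay below all si-NC libraries and replicate 3 above 2 of them. The log2 fold change was -0.40 (SE 0.24, 95% interval -0.92 to 0.12, adjusted p = 0.351). Without the library labelled si-GPD1L replicate 3 it was -0.79, with an adjusted p-value of 0.04996.

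Podocan, a class V member first described in the kidney glomerulus and known to bind collagen I, was the remaining member that fell. Podn (chromosome 5, 127617482 to 127637898, minus strand) had 1332, 1774 and 1908 normalized counts in si-NC. In si-GPD1L it had 986, 1104 and 1353. The groups overlapped by a narrow margin, si-NC replicate 1 lying just below si-GPD1L replicate 3. The mean fell from 1671 ± 302 to 1148 ± 188 (SD, n = 3), or 68.7% of the si-NC mean, with a log2 fold change of -0.54 (SE 0.13, 95% interval -0.83 to -0.25, adjusted p = 0.0337). The call was lost in 5 of 15 alternative fits. These were the transcript table (adjusted p = 0.0718) and the fits without si-NC replicate 2 (0.108), si-NC replicate 3 (0.0601), si-GPD1L replicate 1 (0.170) and si-GPD1L replicate 2 (0.161), where the log2 fold change ran from -0.54 to -0.44. Without si-NC replicate 1, the lowest si-NC library for this gene, it was -0.68 with an adjusted p-value of 2.49e-05.

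**Figure D2:**
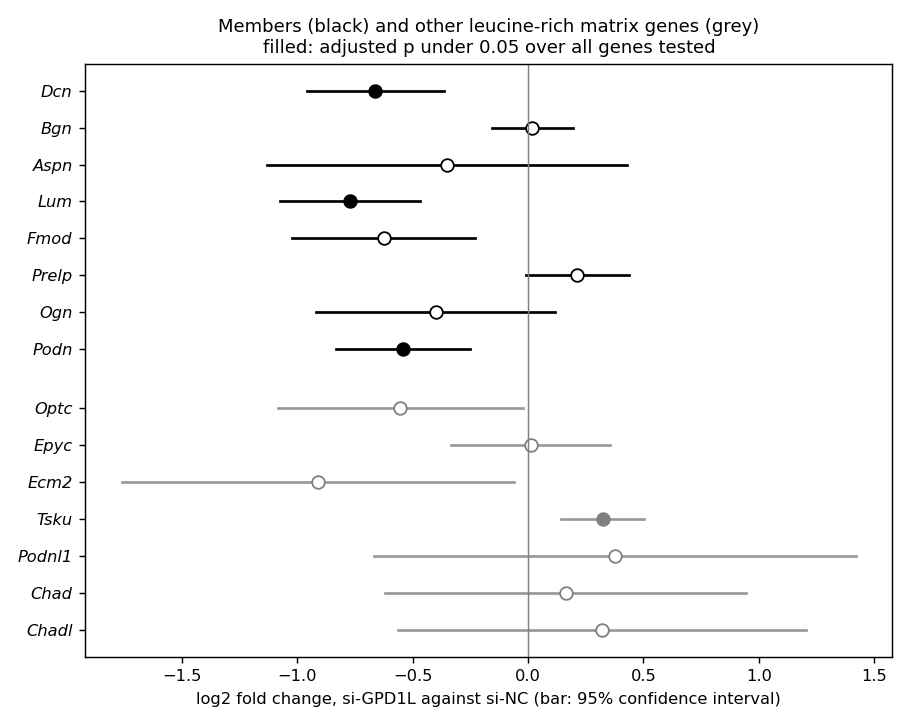
Log2 fold change of si-GPD1L against si-NC (x axis) with 95% intervals for the 8 tested members (black) and 7 other leucine-rich matrix genes (grey), filled where the adjusted p-value was under 0.05. Lum, Dcn and Podn are filled on the side of lower expression, Tsku is filled on the other side, and the intervals of Bgn and Prelp include 0.

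In the order of the deposited TPM, which divides by gene length and so allows a comparison between genes, biglycan dominated the family. Bgn had 5968 ± 618 TPM in si-NC and 6392 ± 170 in si-GPD1L (mean ± SD, n = 3), and ranked between 9 and 13 among all genes in each library. Lum followed with 300.3 ± 27.0 TPM and Dcn with 296 ± 20.1 in si-NC, which did not differ beyond their spread. In si-GPD1L the levels were 187 ± 42.4 for Lum and 199 ± 45.9 for Dcn. Podn (56.3 ± 12.6 TPM) and Prelp (54.1 ± 7.39) came next in si-NC and also overlapped each other. In si-GPD1L this pair no longer overlapped, with Prelp at 57.0, 65.5 and 76.6 TPM and Podn at 34.8, 39.4 and 48.1. Fmod had a mean of 24.3 TPM in si-NC, Ogn 5.33, Aspn 0.645 and Omd 0.0744.

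The rank of Dcn among all genes by TPM was 431, 499 and 447 in si-NC and 990, 752 and 568 in si-GPD1L. Lum held similar ranks, 411, 486 and 457 in si-NC and 1023, 842 and 604 in si-GPD1L. Both therefore stood lower in the order of genes in each si-GPD1L library. The share of the summed member TPM that came from Bgn was 87.5%, 89.6% and 89.7% in si-NC and 93.9%, 92.6% and 91.3% in si-GPD1L. Without Bgn, the members summed to 760, 700.3 and 749.8 TPM in si-NC. In si-GPD1L they summed to 408, 505 and 630.4, while the sum with Bgn overlapped, at 6077 to 7296 TPM in si-NC against 6721 to 7217 in si-GPD1L.

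**Figure D3:**
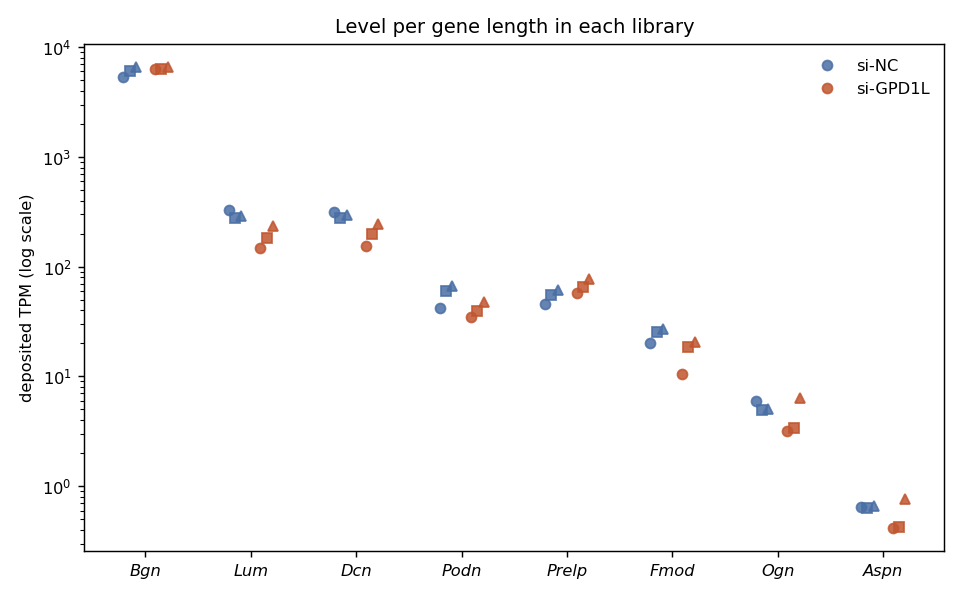
Deposited TPM (y axis, log scale) of 8 members in each library, ordered by the si-NC mean, with blue for si-NC and orange for si-GPD1L and marker shapes for the replicate number (Omd is left out because 3 of its 6 values are 0). Bgn lies between 5317 and 6587 TPM in the 6 libraries, with Lum and Dcn next at 300.3 and 296 TPM on average in si-NC.

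Some members also stood in different proportions to each other in the 2 groups, as read from their counts within a library. These ratios were chosen after their values were seen and are given without a test. Lum stood at 0.991, 0.956 and 0.922 counts for each Dcn count in si-NC and at 0.907, 0.866 and 0.892 in si-GPD1L. All 3 ratios in si-GPD1L lay below all 3 in si-NC, by a smaller margin than for the Prelp ratios below. Prelp stood at 0.362, 0.518 and 0.540 counts for each Lum count in si-NC and at 0.998, 0.940 and 0.856 in si-GPD1L. Against Fmod, Prelp stood at 3.48, 3.33 and 3.41 in si-NC and at 8.21, 5.41 and 5.64 in si-GPD1L. Both Prelp ratios were higher in all si-GPD1L libraries than in any si-NC library. Fmod to Lum overlapped, at 0.104, 0.155 and 0.159 in si-NC and 0.122, 0.174 and 0.152 in si-GPD1L.

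Many members lie in clusters, in which neighbouring genes of the family arose by duplication. On chromosome 7, Dcn lies 37.8 kb from Lum, and 31.2 kb further on is keratocan (Kera), a corneal member with 0 counts in all 6 libraries. Epiphycan (Epyc), a cartilage member that ends this cluster, had 102.8 ± 15.06 normalized counts in si-NC and 103.7 ± 6.03 in si-GPD1L (SD, n = 3). Its log2 fold change was 0.01 (adjusted p = 0.980), whereas its neighbours Dcn and Lum fell. On chromosome 13, Prelp lies 0.6 kb from opticin (Optc), which is best known from the eye, and 101.0 kb from Fmod. Optc had 67.2, 89.9 and 103.4 normalized counts in si-NC and 53.4, 43.6 and 80.9 in si-GPD1L, and its log2 fold change was -0.55 (SE 0.24, adjusted p = 0.204). Prelp was thus the only tested gene of this cluster with a fold change above 0.

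Ogn and Aspn lie 27.7 kb apart on chromosome 17 and belong to a cluster that rn6 holds in a pair of annotated copies. The second Ogn copy had 7, 11 and 3 counts in si-NC and 6, 9 and 4 in si-GPD1L. Aspnl1, the second asporin gene, had 24, 8 and 7 counts in si-NC and 7, 14 and 9 in si-GPD1L. Reads that match both copies could be split or left out by the counting, so the levels of Ogn, Aspn and Omd are uncertain. With the copies summed, 3 members were called as before. Ecm2, an extracellular matrix protein encoded next to the second asporin gene, had 19.8, 16.9 and 17.6 normalized counts in si-NC and 5.45, 9.09 and 14.0 in si-GPD1L. Its groups did not overlap, and its log2 fold change was -0.91 (SE 0.39, adjusted p = 0.193).

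**Figure D4:**
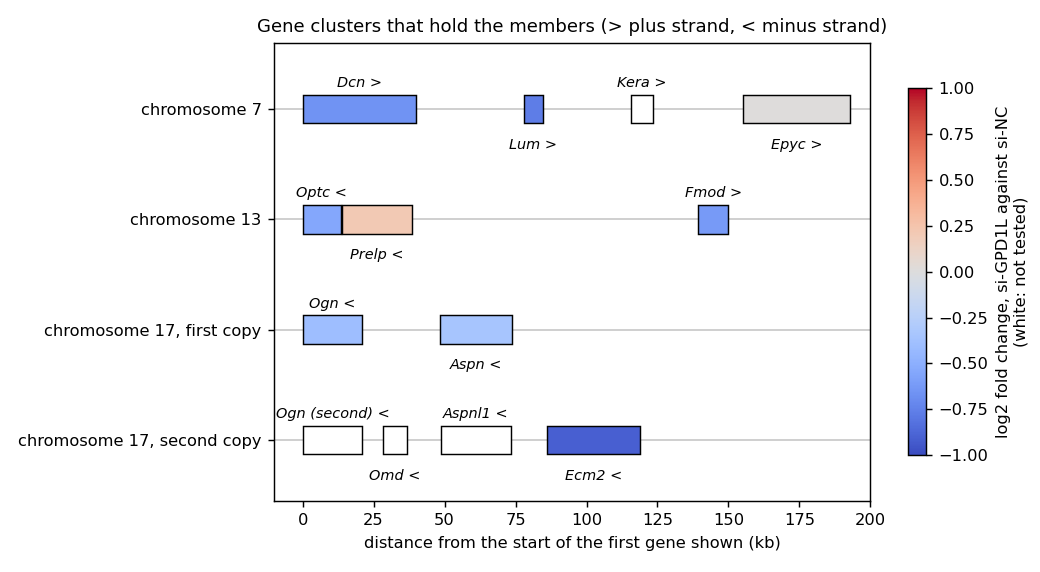
Gene clusters that hold members, drawn to scale as distance in kb from the start of the first gene shown (x axis), coloured by log2 fold change of si-GPD1L against si-NC (white where not tested). Dcn and Lum are both blue (lower) next to a neutral Epyc on chromosome 7, and Prelp is pale red between blue Optc and Fmod on chromosome 13.

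Promoter sequences of 6 members were found in RefSeq (GRCr8), those of Aspn, Fmod, Lum, Ogn, Omd and Podn. The stretches before the annotated start of Lum, Podn and Fmod are shown because these genes had the lowest fold changes among the 6 and represent classes II and V. Each is 100 bases long and reads 5′ to 3′ on the strand of its gene. They lie at chr7:34245606-34245705 (plus strand) for Lum, chr5:128025058-128025157 (minus strand) for Podn and chr13:48045467-48045566 (plus strand) for Fmod. Capitals mark matches to GGGCGG, the core of a GC box, and to CAGAC, a core to which Smad proteins can bind, or its reverse complement GTCTG.
Lum: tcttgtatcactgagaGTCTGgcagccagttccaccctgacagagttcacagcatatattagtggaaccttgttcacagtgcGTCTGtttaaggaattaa
Podn: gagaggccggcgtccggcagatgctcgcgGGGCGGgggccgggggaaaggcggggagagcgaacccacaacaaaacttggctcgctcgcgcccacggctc
Fmod: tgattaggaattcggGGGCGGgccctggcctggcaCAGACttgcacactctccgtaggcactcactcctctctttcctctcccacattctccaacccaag

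The promoters of Lum and Podn, which both fell, differed in composition. Over the 250 bases before the start, G and C made up 77.6% in Podn, more than in 98.03% of 33469 promoters, and 52.8% in both Lum and Fmod. Both strands of these 250 bases were searched for both marked motifs and for the CCAAT box and the TATA box core TATAA. The Smad core CAGAC was found 3 times in Lum, 2 times in Fmod and 1 time in Ogn, and 42.9% of all promoters hold it. GGGCGG was found 3 times in Podn and 1 time in Fmod, and 30.5% of all promoters hold it. CCAAT, which 34.0% of all promoters hold, was found 1 time each in Lum and Fmod. TATAA, which 24.0% hold, was found only in Ogn, at a pair of overlapping positions on opposite strands. No motif of the 4 was found in Aspn or Omd, and none was shared by Lum and Podn.

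The other genes whose pattern over the 6 libraries was most like a member's were named by the smallest root mean square difference of centred log2 normalized counts. Candidates were genes whose mean normalized count was 50 or more, and the values describe these 6 libraries only. For Dcn they were Mgst1 (0.0599 log2 units) and Cfap69 (0.0618), with Lum just behind (0.0641). For Lum the most alike gene was Dcn itself (0.0641), followed by Tmem176a (0.0646). For Podn they were Thbs2 (0.0623) and Fbln1 (0.0645). For Fmod the most alike was Osbp2 (0.0815), and for Prelp they were Mki67 (0.0382) and Cd14 (0.0429). For Bgn they were Xpot (0.0151) and Tmem248 (0.0201), and for Ogn Kcnj2 (0.145) and Ptger3 (0.146). For Aspn they were LOC103692717 (0.0939) and Slc16a12 (0.0995). Among these candidates, Lum was the only tested member with another member among its 2 most alike genes. Aspn, with a mean under 50, was not a candidate. It lay 0.108 from Ogn, nearer than either gene named for Ogn.

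The first list that follows holds relatives outside the 9 members, some of which are counted in the same family. The last holds other proteoglycans, and those between hold genes that make, cleave or are bound by the family. Beside each list stands the share over all genes tested, 6.36% called, with 4.03% higher and 2.33% lower in si-GPD1L. Among 9 other leucine-rich matrix proteins, 7 were tested, 1 rose and 0 fell, with a median log2 fold change of 0.16 and 2 below 0. The count of members that fell therefore covers the 9 named members and not these relatives. The gene that rose was Tsku (tsukushi, a secreted leucine-rich protein known to bind BMP), with 1345, 1608 and 1452 normalized counts in si-NC and 1948, 1717 and 1845 in si-GPD1L. The groups did not overlap, and its log2 fold change was 0.32 (SE 0.082, adjusted p = 0.0377). It passed the threshold in 2 of the 6 fits with 1 library left out, and not without si-NC replicate 3 or any 1 of the 3 si-GPD1L libraries, where the adjusted p-value reached 0.184.

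Among the enzymes that build the linkage region and the chondroitin or dermatan sulfate chains, 22 of 23 were tested, 3 rose and 0 fell, with a median of 0.12. Chpf2, a chondroitin polymerizing factor, rose from 1840 ± 144 to 2359 ± 123.9 normalized counts (SD, n = 3, log2 fold change 0.36, adjusted p = 0.0172). Pxylp1, a phosphatase that acts on the xylose of the linkage region, rose by 0.37 (adjusted p = 0.0437), and Chst15, which adds a second sulfate to chondroitin, rose by 0.47 (adjusted p = 0.0478). With 1 library left out, Chpf2 was called in 4 of 6 fits, Pxylp1 in 2 and Chst15 in 1. None of the 3 was called without si-GPD1L replicate 1 or 2, Pxylp1 and Chst15 also not without si-NC replicate 3 or si-GPD1L replicate 3, and Chst15 not without si-NC replicate 2. The highest adjusted p-values were 0.117, 0.181 and 0.218, and with upper-quartile normalization 1 of the list was called. Among the enzymes of keratan sulfate and of sulfation, 12 of 13 were tested, 1 rose and 0 fell, with a median of -0.0058. It was Papss2, which makes the sulfate donor, with 345, 424.3 and 393 normalized counts in si-NC and 655, 570 and 482 in si-GPD1L (log2 fold change 0.55, adjusted p = 0.0174). It too was not called without si-GPD1L replicate 1 or 2.

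The next list held 13 genes, for proteinases known to cleave members or the factors they work with and for a proteinase enhancer (Pcolce). Of these, 10 were tested, 0 rose and 2 fell, with a median of -0.14. Adamts1, a metalloproteinase that cleaves proteoglycans, fell from 2797 ± 71.96 to 2303 ± 96.57 normalized counts (SD, n = 3, log2 fold change -0.28, adjusted p = 0.0291). Mmp14, a membrane-bound matrix metalloproteinase, fell from 27417 ± 1422 to 22296 ± 952.6 (log2 fold change -0.30, adjusted p = 0.0410). In the fits with 1 library left out, Adamts1 was called in 2 of 6 and Mmp14 in 1 of 6, and neither was called without si-NC replicate 2 or without any 1 of the si-GPD1L libraries.

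Of 14 collagens bound by the family, 13 were tested and 0 were called by edgeR's quasi-likelihood test, while 4 had an unadjusted p-value under 0.05. Their median log2 fold change was -0.02, with 7 of the 13 below 0. Col1a1, the main fibrillar collagen, had 762740 ± 126411 normalized counts in si-NC and 907731 ± 9684 in si-GPD1L (SD, n = 3), a log2 fold change of 0.25 (adjusted p = 0.219). Col3a1, its companion in distensible tissue, had a log2 fold change of -0.26 (adjusted p = 0.156). Without si-NC replicate 1, the lowest library for Col1a1 at 616927 normalized counts, 8 collagens were called. The directions of these 8 are not given here.

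Among 19 growth factors and receptors that members bind, all 19 were tested, 1 rose and 1 fell, with a median of 0.11. Bmp6, a bone morphogenetic protein, rose from 1851 ± 190.1 to 2409 ± 134.8 normalized counts (SD, n = 3, log2 fold change 0.38, adjusted p = 0.0185). Tgfb3, which encodes a TGF-β, had 10735, 11030 and 10142 normalized counts in si-NC and 8702, 8480 and 8682 in si-GPD1L. It fell by 0.30 on the log2 scale (adjusted p = 0.0261), and its groups did not overlap. Bmp6 was not called without si-GPD1L replicate 1 or 2. Tgfb3 was called in 2 of 6 fits with 1 library left out, and not without si-NC replicate 2 or any 1 si-GPD1L library.

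By number alone, the proteoglycans outside the family held the most called genes of these lists, which differ in length. Of 26 listed, 21 were tested, 5 rose and 1 fell, with a median of 0.17. Agrn, a basement membrane heparan sulfate proteoglycan, rose from 1553 ± 248.3 to 2864 ± 102.4 normalized counts (SD, n = 3, log2 fold change 0.88, adjusted p = 0.000153). Vcan (versican, the large chondroitin sulfate proteoglycan of loose matrix) had a log2 fold change of 0.53 (adjusted p = 0.000897), and Cspg4, a transmembrane chondroitin sulfate proteoglycan, had 0.80 (adjusted p = 0.00130). Gpc1, a glypican, rose from 1661 ± 174.2 to 2296 ± 48.08 (log2 fold change 0.47, adjusted p = 0.00455). These 4 were called in all 6 fits with 1 library left out. Esm1, a secreted dermatan sulfate proteoglycan of endothelial cells, was the remaining gene that rose (log2 fold change 0.75, adjusted p = 0.0195), and it was not called without si-GPD1L replicate 1 or 2. The gene that fell was Sdc2, a syndecan (log2 fold change -0.34, adjusted p = 0.0356), which was not called without si-NC replicate 2, si-GPD1L replicate 1 or si-GPD1L replicate 2. Without si-NC replicate 1, 10 genes of this list were called.

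Markers of the cells the cultures could hold were looked at beside the members. Of 10 fibroblast markers all were tested, 0 rose and 1 fell, and their summed normalized counts ran from 812296 to 1035640 in si-NC and from 1084400 to 1095490 in si-GPD1L. Most of this sum was Col1a1, and 8 of the 10 markers had a log2 fold change below 0, with a median of -0.06. The marker that fell was S100a4, a calcium-binding protein (log2 fold change -0.61, adjusted p = 0.00841), with 4409, 3290 and 3011 normalized counts in si-NC and 2365, 2279 and 2370 in si-GPD1L, not called without si-GPD1L replicate 2 (adjusted p = 0.0638). Of 8 endothelial markers 7 were tested, 4 rose (Plvap, Cdh5, Pecam1 and Tie1) and 0 fell, and the sum ran from 679 to 837 in si-NC and from 1002 to 1182 in si-GPD1L. With 1 library left out, Plvap and Cdh5 were called in all 6 fits. Pecam1 was called in 3, and not without si-NC replicate 2, si-GPD1L replicate 2 or si-GPD1L replicate 3 (highest adjusted p = 0.152), and Tie1 in 2, and not without si-NC replicate 2 or any 1 si-GPD1L library (highest adjusted p = 0.211). Of 7 markers of cartilage and tendon cells 3 were tested, 2 rose (Sox9 and Scx) and 0 fell, and the sum ran from 2318 to 2798 in si-NC and from 3411 to 4509 in si-GPD1L. Most of this sum was Sox9, and Acan, also tested, had a log2 fold change of 0.09 (adjusted p = 0.719). Col2a1, Col9a1 and Tnmd had at most 4 counts in a library. Comp, not tested, was lower in si-GPD1L, at a mean of 3.94 normalized counts against 10.9 in si-NC. The fibroblast, endothelial and cartilage and tendon sums were higher in all si-GPD1L libraries than in any si-NC library. The cardiomyocyte and Schwann cell sums, given below, were lower in all of them, though not every marker in these lists was lower. The part of these sums in the fall of Dcn, Lum and Podn was not tested.

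The remaining marker lists showed 1 gene called. Of 8 cardiomyocyte markers, all tested, 0 were called, and the sum ran from 29012 to 30355 in si-NC and from 25632 to 28248 in si-GPD1L. Tnnt2, the marker with the highest mean normalized count in this list, had 1092 TPM on average in si-NC, against 296 for Dcn. Myocyte mRNA was thus still present in the cultures. Of 8 macrophage markers, all tested, 0 were called, and the sum ran from 2559 to 2785 in si-NC and from 2234 to 3185 in si-GPD1L. Of 8 markers of smooth muscle cells and pericytes, all tested, 1 fell (Des, log2 fold change -0.35, adjusted p = 0.0282, not called without si-NC replicate 2, si-GPD1L replicate 1 or si-GPD1L replicate 2), and their sum ran from 11963 to 13924 in si-NC and from 10952 to 12579 in si-GPD1L. Of 6 epicardial markers 5 were tested and of 4 Schwann cell markers 3, and 0 were called in both lists. The Schwann cell sum ran from 136 to 171 in si-NC and from 97.2 to 128 in si-GPD1L, and the epicardial sum from 1318 to 1397 and from 1231 to 1343. At an unadjusted p-value under 0.05 there were 4 cardiomyocyte, 1 macrophage, 1 epicardial, 1 Schwann cell and 4 smooth muscle or pericyte markers. Among these cardiomyocyte markers, Ttn was higher in si-GPD1L (log2 fold change 0.36). A log2 fold change below 0 was seen for 6 of the 8 cardiomyocyte markers and 2 of the 3 tested Schwann cell markers. All 8 smooth muscle and pericyte markers had a log2 fold change below 0, with a median of -0.27. No marker was at 0 in every library. The part of these lists in the members' values was not tested.

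**Figure D5:**
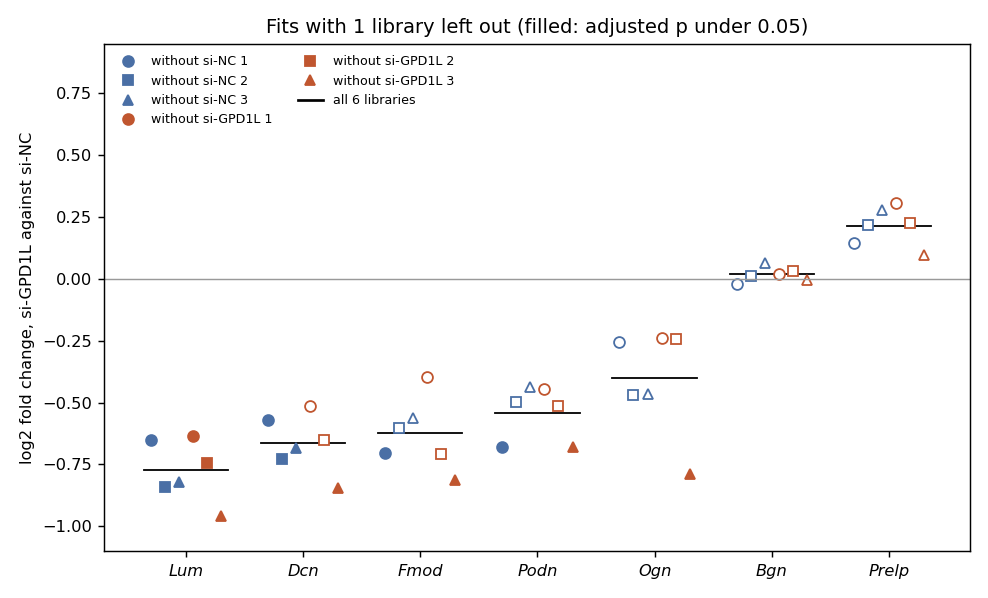
Log2 fold change of si-GPD1L against si-NC (y axis) for 7 members with all 6 libraries (black line) and with each library left out in turn (blue for si-NC, orange for si-GPD1L, shapes for the replicate number), filled where the adjusted p-value was under 0.05. All 6 points are filled for Lum, 4 for Dcn, 2 each for Fmod and Podn, and 1 for Ogn, while those of Bgn straddle 0.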

How the data were processed

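Polyadenylated RNA of 6 samples was sequenced (si-NC and si-GPD1L, 3 each), grouped by the sample labels. The authors deposited raw counts for 40154 genes and 55760 transcripts, and the submitters' processing notes name bcl2fastq, HISAT2 2.1.0, HTSeq 0.12.4 and rn6. Whether counting used strand is not given in the sources used here. The deposited TPM values (counts per gene length, scaled to a common sum) served only to compare levels between genes. The authors' tables of their own fold changes, p-values and enriched terms were not used.

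Counts were compared with R 4.3.3 and edgeR 4.0.16 (filterByExpr, TMM, glmQLFit and glmQLFTest, Benjamini-Hochberg adjustment over 14852 genes). SE is the absolute log2 fold change divided by the square root of F. The test was first tested on simulated data. Intervals are at 95%, and counting limits cover counting error only. Alternatives were DESeq2 1.42.0 size factors, upper-quartile normalization, DESeq2's Wald test, edgeR's exact test, no filter, at least 10 counts in every library, a block for the replicate number, 1 library left out at a time, and the transcript table. Summing the annotated copies of Ogn, Aspn and Omd was added after seeing the data.

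All members were named. Of each list, at most the 4 called genes with the smallest adjusted p and the 2 with the highest mean were named, and for each tested member the 2 genes most alike in pattern. A gene that met this rule is not reported here. Esm1, Sdc2, Col1a2, Col5a3, Col2a1, Col9a1, Ttn, Tnmd, Comp and the cluster neighbours of the members were named outside it, after their values were seen. The members and lists were chosen with earlier results of these data known. Promoters are RefSeq sequences of GRCr8, and no coordinates were converted between builds. Figures were drawn with matplotlib 3.10.9.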

Additional observations from a re-analysis of the deposited data

How the results depend on the processing

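The direction was kept in all 15 alternative fits for Lum, Dcn, Fmod, Podn, Ogn, Aspn and Prelp, and the cause of the changes below was not tested. The sign of Bgn, which no fit called, turned with upper-quartile normalization (-0.0057), and with 1 library left out its value ran from -0.0221 (si-NC replicate 1) to 0.0626, being -0.0051 where si-GPD1L replicate 3 was left out. Of 3 members called, all lower, the fits with 1 library left out called 1 to 5, and the count past both thresholds was 0 in every fit. There were 4 in DESeq2's Wald test, 2 in the transcript table and 3 with the copies summed, a choice made after seeing the data. Gpd1l ran from -0.50 to -0.21 and was called in no fit. The 945 genes called became 1528 in the exact test, 1929 with no filter, 623 in the transcript table and 361 to 1531 with 1 library left out. The number was 1097 in DESeq2's Wald test and 921 with the replicate number as a block. The 599 higher genes became 1055 with no filter and 299 to 861 with 1 library left out. The 346 lower genes became 655, 874 and 198 in the exact test, with no filter and in the transcript table, and 53 to 670 with 1 library left out.

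Deviations of same-numbered libraries from their group means had correlations of 0.0398, -0.0036 and 0.0468. These lay within the range of differently numbered libraries, -0.092 to 0.053. With 3 libraries per group this does not settle whether same-numbered libraries share an isolation. With the replicate number as a block 4 members were called, Fmod being added (log2 fold change -0.66, adjusted p = 0.00833), and the Bgn to Dcn difference was 0.70 (exact sign-flip p = 0.25, the smallest that 3 pairs allow). The block left 0 of 1 other leucine-rich gene and 1 of 3 chondroitin or dermatan sulfate enzymes called, and upper-quartile normalization also left 1 of these enzymes. With 1 library left out, the called genes of the related lists ran from 0 to 1 for other leucine-rich proteins, 0 to 3 for chondroitin or dermatan sulfate enzymes, 0 to 2 for keratan sulfate enzymes, 0 to 3 for proteinases, 0 to 8 for collagens, 0 to 4 for growth factors and receptors and 4 to 10 for other proteoglycans. Aspn had at most 20 counts in a library and Omd at most 4, which limits their precision.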

Other observations

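The 4 listed Prelp transcripts differ in length, and the shortest, NM_053385.1 (1421 bases), held 683, 747 and 822 counts in si-NC replicates 1 to 3 and 678, 1033 and 1002 in si-GPD1L. The longest, XM_008769572.1 (4156 bases), held 1730, 1801 and 2104 counts in si-NC and 1740, 2371 and 2534 in si-GPD1L, nearly the whole count of the gene. Most reads of the gene were thus counted for the longest transcript and not for the shortest.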
